A study of Homo sapiens with 2 samples.

Results

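The 10 genes described here encode amino acid transporters of the plasma membrane, among them the carriers that can bring methionine into a cell. They were taken by gene symbol (SLC3A2, SLC7A5, SLC7A6, SLC7A11, SLC43A2, SLC7A1, SLC38A1, SLC38A2, SLC1A4 and SLC1A5) from the 36601 genes of the count tables, and the set was proposed with earlier results of these data known. The study grew the human triple-negative breast cancer line MDA-MB-231 with methionine, or without it on the precursor homocysteine, and asked what changes when methionine-dependent cells become able to grow on the precursor. D0 cells are the parental line, kept in RPMI-1640 with 100 µM methionine. D21 cells are revertants kept for 21 days in the same base medium with no methionine. This medium held 100 µM L-homocysteine, 1.5 µM added vitamin B12 (cyanocobalamin) and dialysed fetal bovine serum. Both media held penicillin with streptomycin. The study states dialysed serum for its custom media and does not say whether the D0 cells had it. Serum may therefore also have differed between the libraries. Each condition is 1 single-cell library, made with the 10x Genomics 3' kit v3.1, so every interval given below covers counting error only, no test of the conditions was possible, and how far repeat cultures would differ is unknown. Methionine, homocysteine and B12 changed together between the libraries, and their separate parts cannot be told apart.

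Amino acids cross the plasma membrane on carriers that differ in what they accept and in whether they exchange or accumulate their substrates. Methionine is a large neutral amino acid, and system L exchangers such as LAT1 take it up against another amino acid leaving the cell. LAT1 and several related light chains reach the cell surface only when bound to the heavy chain 4F2hc, encoded by SLC3A2. Sodium-coupled carriers of the SNAT and ASCT groups load the cell with small neutral amino acids such as glutamine, which the exchangers can then trade. Many of these genes are known targets of ATF4, the transcription factor that answers amino acid shortage and other stresses, and SLC7A11 is also a known target of NRF2, a factor of the oxidative stress response.

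Sequences at annotated starts of these genes are shown first. The reason is that the levels of several of the genes followed those of known ATF4 targets from cell to cell, as described further on. In RefSeq promoters (assembly GRCh38.p14, a short window around each annotated start), 9 of the 10 genes matched, with 17 promoters in all. The table gave no entry for SLC7A11. The letters TGATGNAA, the composite element that ATF4 binds with partner proteins, were searched on both strands and stood in a promoter of 5 of these 9 genes. The same letters were found in 3.62% of all 35116 promoters and in at least 1 promoter of 4.46% of 27305 genes. The 9 genes had more promoters per gene than genes in general, so their count and these shares are not like for like. The windows below are read 5' to 3' on the strand of the gene, with the match in capitals. In SLC3A2 and SLC1A4 the match lies on the opposite strand and therefore appears reversed and complemented. For SLC3A2, SLC1A4, SLC1A5 and SLC38A1 the start is an annotated one inside the gene span given below, not its outermost 5' end. Whether these cells use such starts was not measured.
SLC3A2, chr11:62881726-62881748, plus strand, first base of the match 38 bases after the start: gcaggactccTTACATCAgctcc
SLC1A4, chr2:64989382-64989409, plus strand, at -7: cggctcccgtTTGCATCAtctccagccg
SLC1A5, chr19:46784894-46784921, minus strand, at -97: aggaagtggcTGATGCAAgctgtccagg
SLC38A1, chr12:46266503-46266530, minus strand, at -4: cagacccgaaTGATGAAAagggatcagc
SLC7A1, chr13:29595664-29595691, minus strand, 8 bases after the start: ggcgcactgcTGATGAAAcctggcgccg

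The letters TGACNNNGC, the core of the element that NRF2 binds, were also searched on both strands and stood in a promoter of 5 of the 9 genes (SLC1A5, SLC3A2, SLC7A1, SLC7A5 and SLC7A6). These letters are common, being found in 13.3% of all promoters and in 16.1% of genes, with the same limit on the comparison. The windows of SLC3A2 and SLC7A5, the heavy and light chain of LAT1, are shown because SLC7A5 had no TGATGNAA match in this table. None of the TGACNNNGC matches overlapped a TGATGNAA match.
SLC3A2, chr11:62881652-62881680, plus strand, at -37: cgagggtgggTGACTCAGCgtcctccttc
SLC7A5, chr16:87869491-87869519, minus strand, at -2: gcggggttccTGACGCAGCtgcgggcggc
The SLC3A2 window again lies at a start inside the gene. A match says only that the letters are there, and binding was not measured.

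The D0 library gave 7492 cells with a median of 18908 UMIs (unique molecular identifiers, each marking 1 captured mRNA molecule), and the D21 library gave 12487 cells with a median of 12022. The cells of each library together held 183098116 and 182839048 UMIs, so levels pooled over cells are about equally precise, while a single D21 cell is shallower. Levels are UMIs of a gene per 1000000 UMIs of all genes in the cells of a library (CPM). Because the kit counts molecules at their 3' ends, these values need no scaling for gene length. Markers of the line were present, with vimentin (VIM) at 4157 CPM in D0 cells and 2876 CPM in D21 cells, and 13 markers of blood, vessel, stroma and hormone-receptor-positive cells summed to 2.99 and 2.88 CPM. Of the cell barcodes, 21 occurred in both libraries, which is 0.280% of the D0 cells and 0.168% of the D21 cells.

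The summed level of the 10 transporters was nearly the same in both conditions, at 775.2 CPM in D0 cells and 795.1 CPM in D21 cells. Of the 10 genes, 8 reached 20 CPM in either library, the minimum set for counting a gene by its change. Among these 8, the ratio of D21 to D0 reached 1.5-fold for 0 genes in either direction, where over all 6867 genes at that minimum 1.12% were at least 1.5-fold higher and 3.47% at least 1.5-fold lower. By a lesser size, SLC7A5 alone was at least 25% higher and SLC38A2 alone at least 20% lower, as were 6.09% and 12.7% of all genes. The median log2 ratio of the 8 was 0.11, against a median of -0.00 for all genes. SLC43A2, which stayed below the minimum, had the widest ratio of the 10, and it is described among the methionine carriers. The order of levels changed in part. SLC38A2 stood above SLC38A1 at D0 and below it at D21. SLC7A11 stood above SLC7A1 and SLC7A5 at D0 and below them at D21. SLC3A2 was the most abundant in both libraries, and SLC38A1 and SLC1A5 at D0, SLC38A2 and SLC1A5 at D21, and SLC1A4 and SLC43A2 at D21 had overlapping intervals.

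**Figure D1:**
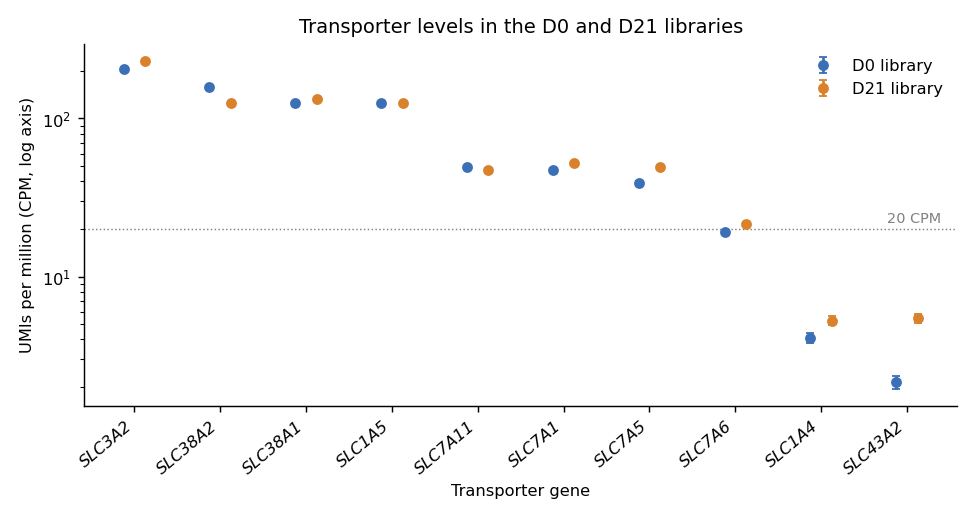
Level of each transporter gene in the D0 library (blue) and the D21 library (orange), in CPM on a log axis, with exact Poisson 95% intervals that are mostly smaller than the points. The pairs lie close together except for SLC43A2, at 2.14 CPM in D0 cells and 5.45 CPM in D21 cells, and the dotted line marks 20 CPM.

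SLC3A2 (ENSG00000168003, chr11:62856102-62888875, plus strand) encodes 4F2hc, the glycoprotein that carries the light chains to the surface. It was counted at 206.6 CPM in D0 cells and 230.7 CPM in D21 cells. The D21 level was 1.12-fold higher (95% interval 1.10 to 1.13). SLC3A2 UMIs were present in 83.7% of D0 cells and 82.6% of D21 cells. A deeper cell shows more of its molecules, so each cell was also thinned at random to 5422 UMIs, the lower of the UMI minimums for a cell. At this equal depth the share with SLC3A2 was 53.5% (95% exact binomial interval 52.4 to 54.7) at D0 and 62.0% (61.1 to 62.8) at D21, so the small difference in the raw share pointed the other way.

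SLC7A5 (ENSG00000103257, chr16:87830023-87869488, minus strand) encodes LAT1, the main system L exchanger of many tumour lines and a carrier of methionine, leucine and other large neutral amino acids. Its level was 39.0 CPM in D0 cells and 49.7 CPM in D21 cells, a ratio of 1.27 (1.23 to 1.31). Among the 8 genes at the minimum this was the highest ratio. The share of cells with an SLC7A5 UMI was 44.7% at D0 and 40.8% at D21, but at equal depth it was 15.9% (15.1 to 16.7) and 20.7% (19.9 to 21.4). The ratio was smaller within the groups of cells described below.

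SLC7A6 (ENSG00000103064, chr16:68264516-68301823, plus strand) encodes y+LAT2, a light chain that exchanges cationic for neutral amino acids, and was counted at 19.2 and 21.6 CPM, a ratio of 1.12 (1.07 to 1.18). SLC7A11 (ENSG00000151012, chr4:138164097-138242349, minus strand) encodes xCT, which imports cystine in exchange for glutamate and so feeds cysteine and glutathione synthesis. It was counted at 49.1 CPM in D0 cells and 47.4 CPM in D21 cells, a ratio of 0.965 (0.937 to 0.994). The direction of SLC7A11 was not stable, since it turned to a log2 ratio of 0.01 when the UMI minimum for a cell was doubled.

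Set against the heavy chain, the 6 light chain genes counted together stood at 52.8 UMIs per 100 SLC3A2 UMIs at D0 and 52.0 at D21. SLC7A5 made up 18.9 of these at D0 and 21.5 at D21. For SLC7A11 the values were 23.8 and 20.5, so the order of these light chains was exchanged. SLC7A6 held 9.28 and 9.34. The other light chain genes, SLC7A7, SLC7A8 and SLC7A10, were each below 1 UMI per 100 of SLC3A2. Heavy chain mRNA thus outnumbered all of its light chain mRNAs together in both libraries, as far as 3' counts of different genes can be set side by side.

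SLC43A2 (ENSG00000167703, chr17:1569267-1628886, minus strand) encodes LAT4, a system L carrier that needs no heavy chain and moves methionine, leucine, isoleucine, valine and phenylalanine down their gradients. Its counts were low, with 392 UMIs in all D0 cells and 996 UMIs in all D21 cells. These correspond to 2.14 CPM (1.93 to 2.36) and 5.45 CPM (5.11 to 5.80). The level was therefore 2.54-fold higher at D21 (2.26 to 2.87), in the only member whose ratio passed 1.5-fold, although below the minimum level. Of the 11001 genes that reached 5 CPM in D0 or D21 cells, 1.79% were at least 1.5-fold higher, but SLC43A2 reaches that minimum only through D21, where it is high, so its place among them supports nothing. An SLC43A2 UMI was found in 4.51% of D0 cells (4.05 to 5.01) and 7.02% of D21 cells (6.58 to 7.49), although the D21 cells were shallower. At equal depth the shares were 0.988% (0.776 to 1.24) and 2.51% (2.24 to 2.80). The related LAT3 gene SLC43A1, which is not among the 10, was counted at 5.12 and 4.59 CPM, a ratio of 0.896.

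The SLC43A2 difference was present in each bin of cells by depth. Cells were put into 4 equal bins by their UMIs within each library, so paired bins were deeper at D0. Medians at D0 and D21 were 11779 and 7082 UMIs in the shallowest bin and 40876 and 24108 in the deepest. The D21 to D0 ratio was 1.90, 2.30, 2.62 and 2.76 from the shallowest bin to the deepest. In the shallowest bin the counts were 46 and 88 UMIs, and the interval ran from 1.31 to 2.77. In the pooled profile of barcodes with 10 to 100 UMIs, which hold mostly free RNA, the gene was counted 8 times at D0 and 4 times at D21. Its level there was 1.88 CPM and 1.29 CPM, so the D0 level in cells was 1.14 times that of the free RNA (0.571 to 2.65), while the D21 level in cells was 4.23 times (1.65 to 15.6). At D0 the level in cells was thus not separable from the free RNA at these counts.

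SLC7A1 (ENSG00000139514, chr13:29509410-29595688, minus strand) encodes CAT1, the carrier of arginine, lysine and ornithine. It was counted at 47.0 CPM in D0 cells and 52.0 CPM in D21 cells, a ratio of 1.11 (1.07 to 1.14). With the cell groups described below weighted equally, the log2 ratio was -0.03, so no direction is given for this gene.

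SLC38A2 (ENSG00000134294, chr12:46358189-46372867, minus strand) encodes SNAT2, the system A carrier whose mRNA and protein are known to answer amino acid shortage, and which takes up alanine, glutamine and methionine with sodium. It was counted at 157.5 CPM in D0 cells and 125.6 CPM in D21 cells. Its ratio of 0.80 (0.784 to 0.812) was the lowest of the 10. At equal depth its UMIs were present in 54.4% of D0 cells (53.3 to 55.5) and 47.2% of D21 cells (46.3 to 48.1). The level was lower at D21 in each bin of UMIs per cell, with ratios from 0.707 to 0.888. These bins were made within each library and do not match in depth. The related SLC38A1 (ENSG00000111371, chr12:46183063-46270017, minus strand) encodes SNAT1, a glutamine carrier that lies next to SLC38A2 on chromosome 12. It was counted at 125.5 and 131.9 CPM, a ratio of 1.05 (1.03 to 1.07). The system A genes thus went in different directions, and SLC38A1 passed SLC38A2 in level at D21.

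SLC1A5 (ENSG00000105281, chr19:46774883-46788594, minus strand) encodes ASCT2, the main glutamine exchanger of many tumour cells. It was counted at 125.1 and 125.6 CPM, a ratio of 1.00 (0.986 to 1.02). The interval includes 1 and is narrow because 22910 and 22968 UMIs stand behind the levels, but the difference between cultures is not covered by it. SLC1A4 (ENSG00000115902, chr2:64988477-65023865, plus strand) encodes ASCT1, a carrier of serine, alanine and cysteine. It was below the minimum, at 4.11 CPM in D0 cells and 5.25 CPM in D21 cells, with a ratio of 1.28 (1.16 to 1.41) from 752 and 960 UMIs.

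No cell type in a pure cell line lacks these genes, so the free RNA served as the background for shares of cells. SLC3A2 was as frequent in the free RNA as in cells, at 219.3 and 231.4 CPM, and so was SLC7A5, at 41.4 and 50.5 CPM. SLC38A1 was less frequent there than in cells, at 69.4 and 58.9 CPM, and so was SLC7A11, at 33.7 and 24.8 CPM. The low-UMI barcodes had a median of 71 and 58 UMIs, and 1.36% and 1.247% of them held an SLC3A2 UMI. What free RNA contributes to the counts in cells was not tested.

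MDA-MB-231 cells differ from each other along an axis that marker genes make visible. Cells with more UMIs of AGR2, SPANXB1 and SOX4 than of CEMIP, SAA1 and SAA2 are called AGR2-list cells, those with fewer are called SAA-list cells, and ties are left undecided. This puts 4867 D0 cells and 4374 D21 cells in the first group, 1996 and 6694 in the second, and 629 and 1419 in neither. The groups are ranges of a score and not cell types: 1722 D0 cells and 3893 D21 cells lay within 2 UMIs of a tie. The marker genes themselves differed between the libraries, with SAA1 3.16-fold higher and AGR2 at 0.455 of its D0 level, so the sizes of the groups are not given as a result. SAA-list cells were deeper than AGR2-list cells, with a median of 24165 against 17433 UMIs at D0 and 13754 against 10630 at D21, and their median share of mitochondrial UMIs was 6.36% against 5.50% and 6.81% against 6.35%.

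SLC7A5 separated the groups most clearly of the better-counted genes. In D0 cells it was counted at 28.1 CPM in AGR2-list cells and 58.3 CPM in SAA-list cells, and in D21 cells at 25.4 and 63.2 CPM. SAA-list cells thus held 2.07 times (1.98 to 2.18) and 2.48 times (2.35 to 2.63) as much, where the median gene at the minimum level stood at 1.05 and 1.06. SLC7A5 was also higher in deeper cells, by 1.97 times at D0 (1.79 to 2.16) and 1.68 times at D21 (1.55 to 1.82) from the shallowest to the deepest bin of UMIs, and SAA-list cells are the deeper group. The part of depth in the difference between the groups was not tested. SLC43A2 showed a like difference, at 1.42 and 3.41 CPM at D0 and 3.39 and 6.63 CPM at D21. SLC7A1, SLC7A6, SLC1A4, SLC1A5 and SLC3A2 were also higher in SAA-list cells of both libraries, by 1.10 to 1.60 times. SLC38A2 went the other way, at 176.1 CPM in AGR2-list cells against 128.0 CPM in SAA-list cells at D0, and 163.4 against 105.8 CPM at D21. SLC38A1 did so too, with ratios of 0.799 and 0.888. SLC7A11 changed sides, from 0.912 at D0 to 1.50 at D21. Most of these genes also differed with depth in the direction of the group difference. From the shallowest to the deepest bin, SLC38A2 stood at 0.674 at D0 and 0.818 at D21, SLC7A1 at 1.60 and 1.39, and SLC7A6 at 1.56 and 1.33. SLC38A1, at 1.05 and 1.07, and SLC7A11 at D0, at 1.17, went against it. The part of depth was not tested for these genes either.

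**Figure D2:**
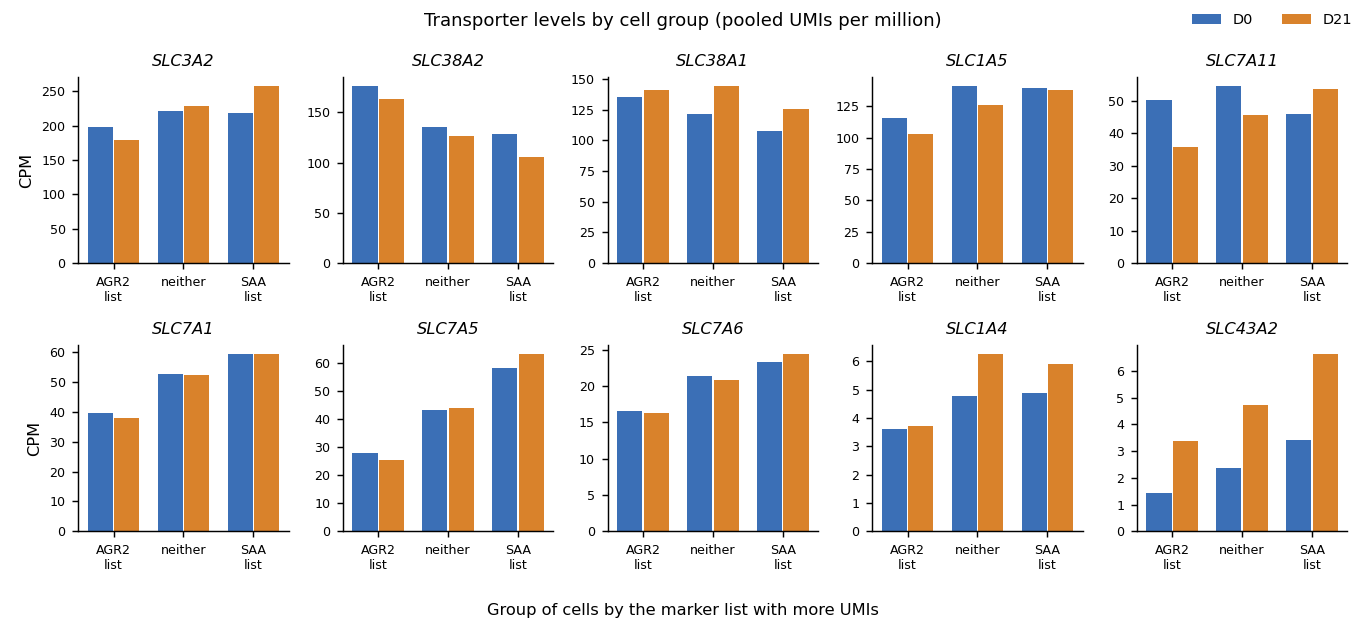
Pooled level in CPM of each transporter gene in AGR2-list cells, undecided cells and SAA-list cells, with D0 in blue and D21 in orange and each axis starting at 0. SLC7A5 and SLC43A2 climb from left to right in both libraries and SLC38A2 descends, and SLC43A2 is 1.94 to 2.39 times as high at D21 as at D0 in the 3 groups.

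Within a group the difference between D21 and D0 was smaller for SLC7A5 than over all cells. Its ratio was 0.905 (0.850 to 0.964) in AGR2-list cells, 1.08 (1.04 to 1.13) in SAA-list cells and 1.01 (0.902 to 1.13) in undecided cells. In a calculation added after seeing the data, its D0 levels in the 3 groups, put together with the D21 shares of UMIs, give 47.5 CPM, against 39.0 CPM measured at D0 and 49.7 CPM at D21. With both groups weighted equally its log2 ratio was 0.04, against 0.35 over all cells. How far the marker genes and the transporter move together for another reason was not tested.

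SLC43A2 kept its difference in each group, at 2.39 (1.92 to 2.96) in AGR2-list cells, 1.94 (1.66 to 2.28) in SAA-list cells and 1.98 (1.28 to 3.14) in undecided cells. Its D0 levels at the D21 shares would give 2.70 CPM, against 5.45 CPM measured. SLC38A2 was lower at D21 in the 3 groups, with ratios of 0.928, 0.826 and 0.931. SLC38A1 stood at 1.04, 1.16 and 1.19, but with groups made by the AGR2 list alone, an alternative added after seeing the data, it stood at 0.975 (0.940 to 1.01) in AGR2-list cells. SLC7A11 and SLC3A2 split, being at 0.711 (0.676 to 0.748) and 0.903 (0.882 to 0.924) in AGR2-list cells and at 1.17 (1.12 to 1.23) and 1.18 (1.16 to 1.21) in SAA-list cells. With groups made by the SAA list alone, SLC3A2 in AGR2-list cells stood at 0.986 (0.965 to 1.01), an interval that included 1.

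**Figure D3:**
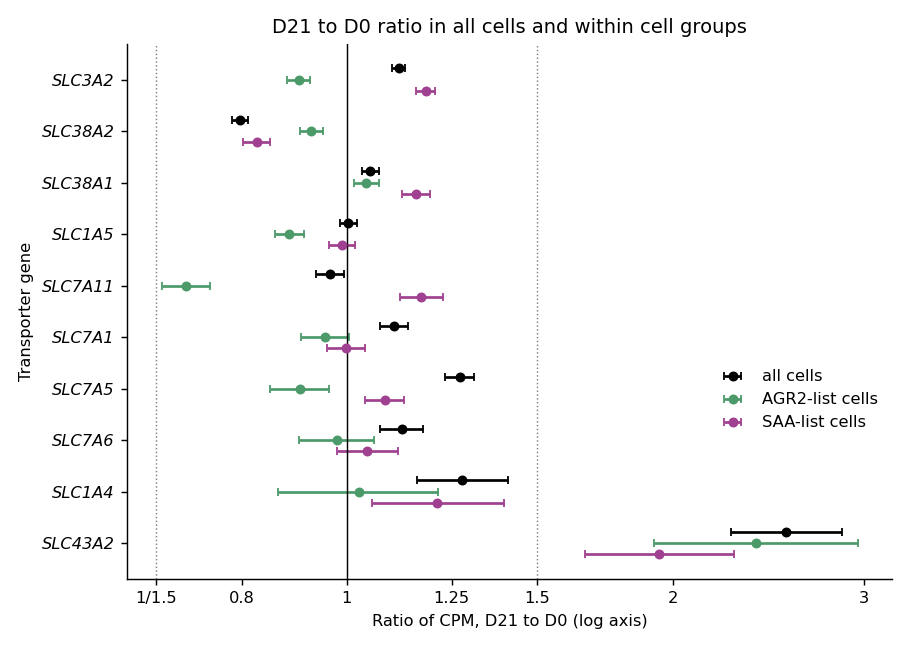
Ratio of the D21 to the D0 level of each transporter gene on a log axis, for all cells (black), AGR2-list cells (green) and SAA-list cells (purple), with exact 95% intervals for counting error and dotted lines at 1.5-fold in each direction. SLC43A2 lies to the right of 1.5 in all 3, SLC38A2 lies left of 1 in all 3, and SLC7A5, SLC3A2 and SLC7A11 lie on both sides of 1.

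The ATF4 programme of each cell was read from 22 known members that are not transporters, summed after thinning, and the cells of each library were put into 4 equal bins by this sum. Counts of the list averaged 1.27 UMIs in the lowest and 10.1 in the highest D0 bin, and 1.76 and 9.18 in the D21 bins. In D0 cells SLC3A2 stood at 102.7, 144.1, 177.0 and 366.7 CPM from the lowest to the highest bin. In D21 cells it stood at 158.7, 197.8, 230.7 and 282.0 CPM. The level went up with the list in both libraries, but the last step was steep only in D0 cells. The highest D0 bin had 3.57 times the SLC3A2 of the lowest (3.33 to 3.83), and the highest D21 bin 1.78 times (1.69 to 1.86).

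SLC7A11 behaved alike, with 25.2 CPM in the lowest and 95.8 CPM in the highest D0 bin, a ratio of 3.80 (3.31 to 4.38), and with 30.9 and 63.2 CPM at D21. SLC7A5 had ratios of 2.36 at D0 and 2.06 at D21, and SLC1A4 had 2.12 and 2.24. SLC1A5 and SLC38A1 followed at 1.87 and 1.96 in D0 cells and 1.63 and 1.29 in D21 cells. SLC7A1 stood at 1.52 and 1.57. For SLC7A6, at 0.977 and 1.10, and for SLC43A2, at 1.18 and 0.867, the intervals included 1. SLC38A2, which is often named among stress-responsive carriers, stood at 1.16 (1.09 to 1.24) and 0.987 (0.931 to 1.05). The median gene at the minimum level stood at 0.993 and 1.02. The list was chosen for what is known of ATF4, and counts were thinned to an equal depth. Before thinning, cells of the highest bin were deeper than those of the lowest. Their medians were 20272 against 16689 UMIs at D0 and 12719 against 11020 at D21. The mitochondrial share was 5.52% against 5.97% at D0 and 6.32% against 6.89% at D21. The part of depth or cell quality in these ratios was not tested.

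**Figure D4:**
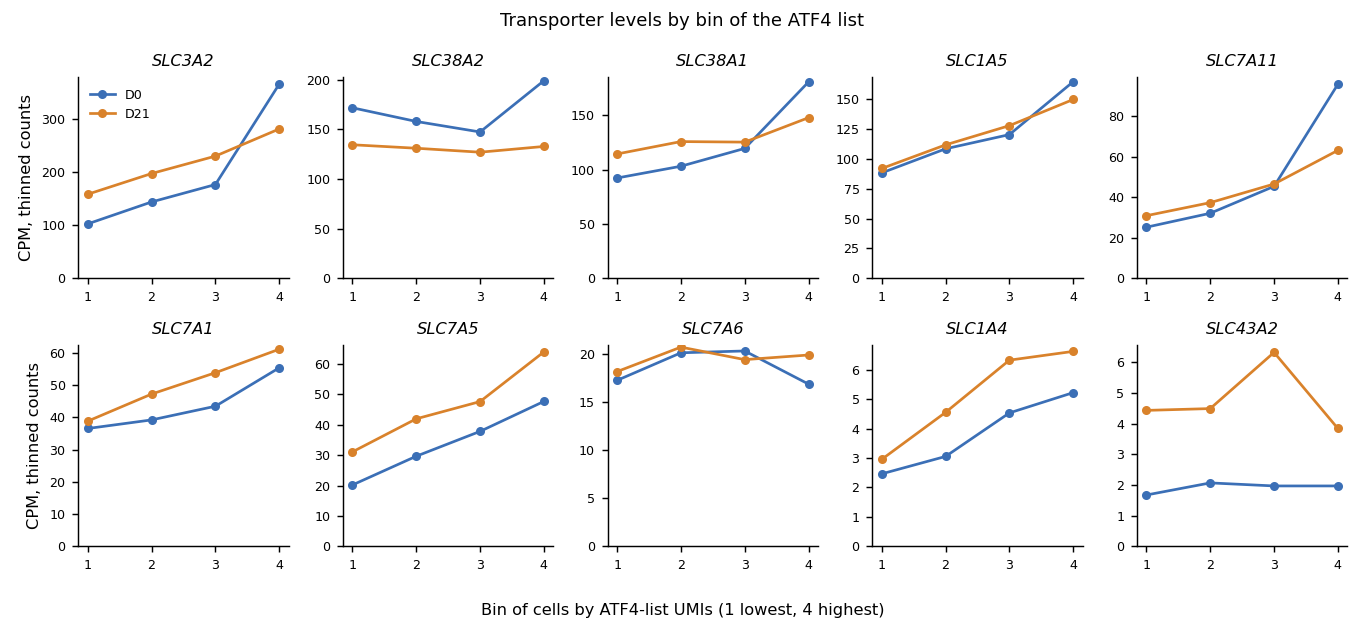
Level in CPM of thinned counts for each transporter gene in bins of cells from the lowest (1) to the highest (4) sum of 22 ATF4-linked genes, with D0 in blue and D21 in orange and axes starting at 0. SLC3A2, SLC7A11, SLC7A5, SLC1A5 and SLC7A1 climb in both libraries, SLC38A2, SLC7A6 and SLC43A2 show no steady climb, and SLC3A2 and SLC7A11 end highest in D0 cells.

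Between the libraries the ATF4 list itself moved in both directions. Of its 22 genes 12 reached the minimum level, and 2 of these were at least 1.5-fold higher at D21, the stress protein NUPR1 at 2.07 and the serine synthesis enzyme PSAT1 at 1.51. Another 2 were at least 1.5-fold lower, the mTORC1 inhibitor DDIT4 at 0.482 and the pseudokinase TRIB3 at 0.663. ATF4 mRNA stood at 90.7 and 103.7 CPM, although ATF4 is known to be controlled mainly in translation, which mRNA counts do not show. The list summed to 927.7 CPM before and 952.2 CPM after reversion, a sum in which these opposite differences offset each other.

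The same bins were made for 12 known NRF2 targets that are not transporters and for 15 genes of the G2 and M phases. By the NRF2 list, SLC7A5 had the highest ratio of top to bottom bin in D0 cells, at 2.07 (1.77 to 2.43), followed by SLC7A11 at 1.93 and SLC3A2 at 1.91. In D21 cells SLC7A11 led with 1.77 (1.60 to 1.96). Of the 7 NRF2 genes at the minimum level, 0 were at least 1.5-fold higher at D21. By the G2 and M list, SLC7A5 was again higher in the top bin, by 1.64 times at D0 and 1.84 times at D21. SLC7A1, at 1.355 and 1.63, SLC38A1, at 1.135 and 1.36, and SLC1A5, at 1.24 and 1.45, were also higher. Their intervals lay above 1 in both libraries. SLC38A2 was lower in the top bin, at 0.659 and 0.772. The median gene at the minimum level stood at 1.03 and 1.08 by this list, and at 1.01 and 1.03 by the NRF2 list. Between the libraries, 1 of the 15 genes passed 1.5-fold, the mitotic kinesin gene KIF20A at 0.523 of its D0 level. From the bottom to the top G2 and M bin, SLC7A11 stood at 0.959 (0.851 to 1.08) at D0 and at 1.69 (1.52 to 1.87) at D21. The difference between the libraries in this respect was not tested. Before thinning, the top G2 and M bin had a median of 22181 UMIs against 14937 in the bottom one at D0. At D21 the medians were 14172 against 9208. By the NRF2 list they were 20976 against 17277 at D0 and 12547 against 11207 at D21. The part of depth or cell quality in these ratios was not tested.

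SLC3A2 had the highest variance to mean ratio of counts among cells. It also had the highest mean, and this ratio can rise with the mean, so it does not rank the genes by unevenness. SLC7A11 had the next highest ratio, 1.63 at D0 and 1.34 at D21, at a far lower mean of 0.269 and 0.241. At equal depth the variance of SLC3A2 was 3.44 times its mean in D0 cells and 1.65 times in D21 cells. Counts scattered at random would give 1, and the other 9 genes lay between 1.02 and 1.63. In D0 cells, 74 cells, the top 1%, held 13.1% of all thinned SLC3A2 UMIs. In D21 cells, the top 1%, 124 cells, held 6.61%. The highest thinned count was 39 at D0 and 26 at D21, where the mean was 1.07 and 1.18.

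**Figure D5:**
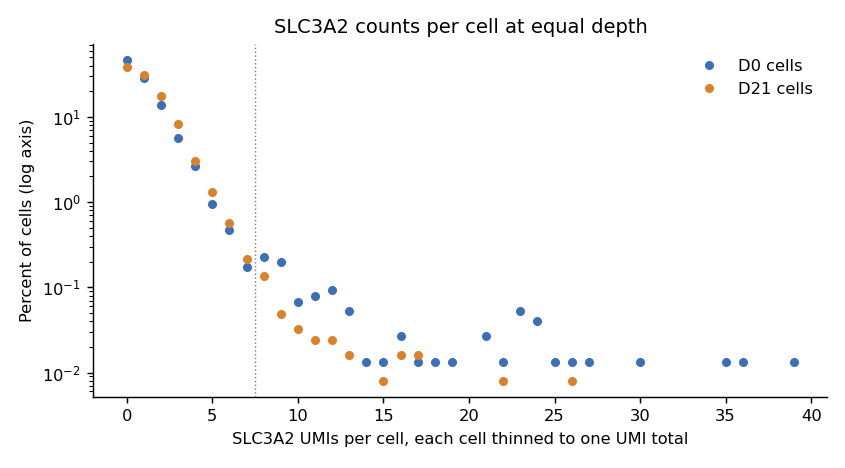
Percent of cells (log axis) with each number of SLC3A2 UMIs after every cell was thinned to 5422 UMIs, for D0 (blue) and D21 (orange). Most cells hold 0 to 4, and to the right of the dotted line at 8 or more the D0 cells form a long shoulder of 78 cells against 42 cells at D21.

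A cut at 8 thinned UMIs, chosen after the counts were seen, set apart 78 D0 cells (1.04%, 0.824 to 1.30) and 42 D21 cells (0.336%, 0.242 to 0.454). These cells were neither deep nor high in mitochondrial UMIs, with a median of 18197 and 11990 UMIs and a mitochondrial share of 5.33% and 5.29%. Among the D0 cells 80.8% were AGR2-list cells, against 65.0% of all D0 cells, and among the D21 cells 40.5%, against 35.0%. The ATF4 list stood at 2547 CPM in them against 882.0 CPM in the other D0 cells, and at 1945 against 929.5 CPM in D21 cells. Because SLC3A2 chose the cells and several further genes were picked after their values were seen, the following levels are a description only.

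DDIT3, which encodes the stress factor CHOP, stood at 465.8 CPM in the 78 D0 cells against 41.6 CPM in the others, and at 628.0 against 40.6 CPM in D21 cells. Not every member of the ATF4 list was higher. In the D21 cells the folate enzyme gene MTHFD2 stood at 0.325 (0.067 to 0.951) and the translation repressor gene EIF4EBP1 at 0.688 (0.460 to 0.988) of the level in the other cells, and PSAT1, SHMT2 and DDIT4 at 0.664, 0.682 and 0.651 with intervals that included 1. GDF15, a secreted stress cytokine, stood at 189.2 against 9.50 CPM and at 118.6 against 12.7 CPM. The chaperone gene HSPA5 was 5.17 times and 2.63 times as high, the autophagy receptor gene SQSTM1 7.31 times and 3.56 times, and the ferritin gene FTH1 5.11 times and 3.06 times. Of the other transporters, SLC7A11 was 2.57 times (1.91 to 3.37) and 2.08 times (1.29 to 3.19) as high in these cells, and SLC38A1 2.66 times (2.23 to 3.15) and 1.58 times (1.15 to 2.11). SLC7A5, the light chain of LAT1, was not separable from the other cells, at 1.12 (0.638 to 1.82) and 0.570 (0.209 to 1.24), from 16 and 6 UMIs. With these cells left out, the D21 to D0 ratio of SLC3A2 was 1.20 (1.18 to 1.22), from 188.2 and 225.8 CPM. The cells were removed by their own SLC3A2 counts and were a larger share at D0. A higher ratio than over all cells therefore follows from the cut and is no separate estimate.

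Counts of the transporters went together only weakly from cell to cell. Over the 45 pairs of the 10 genes, Pearson's r of log thinned counts ran from -0.02 to 0.165 over 7492 D0 cells, with a median of 0.02, and from -0.04 to 0.102 over 12487 D21 cells. These points share their library and are sparse, and such values are no finding. Over both libraries, the genes whose counts went most with the summed transporters were IARS, GARS and TARS, which encode tRNA synthetases for isoleucine, glycine and threonine. Their r was 0.179, 0.222 and 0.141 in D0 cells and 0.145, 0.144 and 0.144 in D21 cells. For SLC3A2 alone they were UPP1, EIF4A1 and FTL. For SLC38A2 they were HMGA2, ERRFI1 and MAGI1, for SLC38A1 HMGA2, IL1RAPL1 and ZFAND3, and for SLC1A5 NPM1, H2AFZ and RPS7.

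Most other amino acid carriers of the plasma membrane were scarce. Of 21 such genes, 2 reached the minimum level, the glutamate carrier SLC1A3 at 16.4 and 20.1 CPM and the proton-independent SLC36A4 at 55.2 and 47.3 CPM, and 0 of them passed 1.5-fold. SLC6A6, the taurine carrier, was below the minimum at 14.7 and 9.12 CPM, a ratio of 0.622. Of the lysosomal carriers, SLC38A9, the arginine sensor of mTORC1, stood at 24.0 and 25.8 CPM, and MFSD12, the lysosomal cysteine importer, at 68.8 and 51.7 CPM. These were the 2 of 8 lysosomal genes at the minimum level, and 0 passed 1.5-fold. Of the mitochondrial carriers 4 of 9 reached the minimum level and 0 passed 1.5-fold. The highest were SLC25A39, which imports glutathione, at 98.8 and 81.4 CPM, and the serine carrier SFXN1 at 63.4 and 65.9 CPM.

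Among partners that act on the transporters, 7 of 7 genes reached the minimum level and 0 passed 1.5-fold. NEDD4L, a ubiquitin ligase that marks membrane carriers for removal, stood at 99.5 and 145.4 CPM, a ratio of 1.46. BSG, the chaperone basigin of the lactate carriers, stood at 378.8 and 308.0 CPM, a ratio of 0.813. CD44, known to bind and steady the xCT light chain, stood at 312.5 and 415.2 CPM, a ratio of 1.33. LAPTM4B, which brings LAT1 to lysosomes, stood at 74.8 and 68.8 CPM, a ratio of 0.920. Transport itself, protein at the surface and the amino acid content of the cells were not measured in these libraries.

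Exons of SLC7A6 overlap those of SLC7A6OS, and exons of SLC7A11 and SLC7A5 overlap SLC7A11-AS1 and AC126696.2, each on the opposite strand. The kit records the strand of each molecule, whereas the strand setting of the counting was not stated. SLC7A6OS was counted at 25.6 and 29.1 CPM, a ratio of 1.14, close to that of SLC7A6, and SLC7A11-AS1 at 1.20 and 1.59 CPM. SNHG1, the non-coding neighbour of SLC3A2, was counted at 45.0 and 62.5 CPM, a ratio of 1.39. SLC7A5 has near-identical copies elsewhere in the genome, which are not rows of the tables, and reads shared with such copies could be lost from SLC7A5, so its level is uncertain in that respect.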

How the data were processed

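The deposited files are UMI counts per gene and barcode, not normalised, which the authors made with Cell Ranger (version 4 in the file header) on GRCh38. For the annotation release and the counting settings, no source used here gives a value. A barcode was taken as a cell when it reached 10% of the 99th percentile of UMIs among the 5000 largest barcodes (9009 UMIs at D0, 5422 at D21), with at least 500 genes and at most 20% mitochondrial UMIs. They held 91.6% and 91.5% of the 199799447 and 199817213 UMIs. No doublet caller was run. Instead the 5% of cells with the most UMIs were left out as an alternative.

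UMIs were summed over cells and divided by their total (CPM). Levels carry exact Poisson, ratios exact conditional and shares exact binomial (Clopper-Pearson) 95% intervals. The ratio intervals were tried on simulated Poisson counts, the model they assume. That trial therefore cannot show how they hold for counts that are uneven among cells. With 1 library per condition nothing was tested between conditions, and genes were counted by size, at least 1.5-fold with at least 20 CPM in either library. Cells were thinned to 5422 UMIs for shares, bins and correlations. All 10 members were described. From the other lists, up to 4 genes past 1.5-fold were named and otherwise the 2 of highest level, and for likeness the 3 genes with the highest lower r of both libraries. Further genes named were chosen after their values were seen. Values of some list and neighbouring genes are not reported here. Other settings changed the UMI minimum, the mitochondrial limit, the scaling, the weight of cells and cell groups, the fold and the minimum level. The members and lists were chosen with earlier results of these data known. Positions are from GENCODE v29 (GRCh38). Tools were numpy 2.4.6, scipy 1.17.1, pandas 2.3.3 and matplotlib 3.10.9.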

Additional observations from a re-analysis of the deposited data

Results flagged for a closer look

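For 3 of the 10 genes the D21 to D0 ratio lay on opposite sides of 1 in the cell groups, with both counting intervals leaving out 1. SLC7A5 stood at 0.905 in AGR2-list cells and 1.08 in SAA-list cells. SLC3A2 stood at 0.903 and 1.18. SLC7A11 stood at 0.711 and 1.17. SLC7A6, at 0.979 and 1.04, also lay on both sides, but its intervals included 1. With groups made by the SAA list alone, the AGR2-list ratio of SLC7A5 was 1.07 and that of SLC3A2 was 0.986 (0.965 to 1.01), so this pattern was not kept for these genes. The difference between the groups was not tested, since each condition is 1 library.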

How the results depend on the processing

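Of 100 recalculated D21 to D0 log2 ratios (10 genes under 10 other settings each), 66 stayed within the counting interval, 32 moved outside it with the same sign or from a main value whose interval included 0, and 2 reversed from a main value whose interval did not. SLC7A11 reversed to 0.01 at a doubled UMI minimum, and SLC7A1 to -0.03 with the cell groups weighted equally. SLC1A5, at 0.01 with an interval that included 0, kept its sign in 7 of 10 settings and reached -0.09 with the cell groups weighted equally. SLC43A2 ranged from 1.05 to 1.41, SLC38A2 from -0.40 to -0.18 and SLC7A5 from 0.04 to 0.45. At the lesser size (25% higher or 20% lower), 1 gene was higher and 1 lower. With a minimum of 5 CPM or with none, 1 gene (SLC43A2) was at least 1.5-fold higher, which at 5 CPM it reaches only through its D21 level. Thinning turned the D21 minus D0 share of cells, in percentage points, to 4.77 for SLC7A5, 8.44 for SLC3A2, 2.83 for SLC7A1, 0.470 for SLC7A6, 3.03 for SLC38A1, 0.643 for SLC1A4 and 0.335 for SLC1A5. By construction, thinning removes the difference in depth. Alternatives added after seeing the data were the free RNA in place of cells, which gave -0.24 for SLC38A1 and -0.55 for SLC43A2 from 8 and 4 UMIs, and groups made from either marker list alone. By the SAA list alone, SLC7A5 in AGR2-list cells turned to 0.10 and SLC3A2 moved to -0.02. By the AGR2 list alone, SLC38A1 in AGR2-list cells turned to -0.04. The cause of these reversals was not tested. No paired analysis was possible because each condition has 1 library. Depth limits SLC43A2 and SLC1A4 most, and the variation between cultures is unknown.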
